A study of Mus musculus with 6 samples.

Results

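Cell cycle and DNA replication genes were examined in the cerebellum of L1cam knockout and wild type mice at postnatal day 11. The set was a named list of 44 genes, and a member was any gene of that list given as the single symbol of a probe set on the Affymetrix Murine Genome U74Av2 array. This found 41 of the 44, out of 8251 genes with such a probe set, and 56 probe sets in all. Ccnb1, Bub1b and Tyms had none and were not analysed here. Where a gene had several probe sets, the one with the highest mean over the 6 arrays was used for counts and medians. By role, 18 measured members belong to replication and its nucleotide supply, 5 to the G1/S step, 15 to mitosis and 3 to checkpoints.

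The series held 6 arrays, 1 for each of 3 knockout and 3 wild type samples. The knockouts were males carrying the L1CAM knockout on their single X chromosome (-/Y), and the wild type animals were siblings whose sex the labels do not give. All were labelled as strain 129S2/SvPasCrlf, and total RNA of the cerebellum was hybridised, with no treatment named for either group. L1cam is an adhesion molecule of growing axons, and the comparison asks how the whole tissue differs when it is missing. Which part of the gene was altered is not given in the labels. Values are log2 expression values made with RMA, a method that corrects background, brings the arrays to a common distribution and joins the probes of a probe set into 1 value. They can therefore be compared between arrays for a given probe set, and not between genes.

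A dividing cell first commits to division at the G1/S step, where cyclin E with CDK2 and cyclin D with CDK4 or CDK6 release E2F transcription factors. It then copies its DNA with the MCM helicase, the sliding clamp PCNA and the DNA polymerases, and separates the copies in mitosis under CDK1, Aurora and Polo kinases. Checkpoint proteins delay these steps when DNA is damaged or chromosomes are not attached to the spindle. In the second postnatal week of the mouse, granule neuron progenitors in the external granular layer of the cerebellum are still dividing, driven by Sonic hedgehog from Purkinje cells. A change in whole tissue can come from fewer or more dividing cells or from less or more RNA per cell, and these cannot be told apart here.

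The tissue label was checked against cerebellar genes. Zic1, a transcription factor of granule cells, lay between 13.97 and 14.08 on all arrays, and Pcp2, a Purkinje cell protein, between 13.00 and 13.18. L1cam read 8.25, 8.01 and 7.91 in knockouts 1, 2 and 3 and 8.79, 8.48 and 8.73 in wild types 1, 2 and 3, so the groups did not overlap. Array medians ran from 8.87 to 8.94, and arrays carry no read depth, so the number of arrays limits the precision. Knockout 1 stood apart from the other 5 arrays. The array carries Gapdh controls for both ends of that transcript, and the 3' level minus the 5' level, which widens when RNA is shorter, was 0.67, against -0.05 to 0.13 elsewhere. The Y-linked Eif2s3y read 7.11 there and at least 8.59 elsewhere, although this animal too is labelled male. Uty, also Y-linked, read 6.67 there and at least 7.32 elsewhere. The Y-linked Kdm5d (7.22 to 7.41 on all arrays) and the female-expressed Xist (6.31 to 6.41) did not set knockout 1 apart. The cause was not tested. Because of the Gapdh, Eif2s3y and Uty values, results without knockout 1 are given beside most results below.

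The members varied together from array to array, and more within each genotype than most genes did. Knockout 1 had the highest level of the 3 knockouts for 32 of 41 members, and wild type 1 the highest of the 3 wild types for 34. Both held at once for 27 of 41 members, or 65.9%, against 12.3% of all 8251 genes. These counts rest on the brightest probe set of each gene. At dimmer sets knockout 1 was still highest of the knockouts for genes such as Mcm3 (9.06), Mki67 (8.32) and Kif20a (7.16). For others, such as Mcm5 (10.25), Stmn1 (8.22) and Rrm1 (8.83), it was the lowest of them. At the low end, 19 of 41 members had knockout 3 lowest among knockouts and wild type 3 lowest among wild types, or 46.3%, against 14.3% of all genes. Each member was also set against its own mean over the 6 arrays. For knockouts 1, 2 and 3 the median deviation was 0.16, -0.018 and -0.049. For wild types 1, 2 and 3 it was 0.078, -0.041 and -0.13. The high and low arrays thus came from both genotypes. Over all genes the same medians lay between -0.024 and 0.021.

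**Figure D1:**
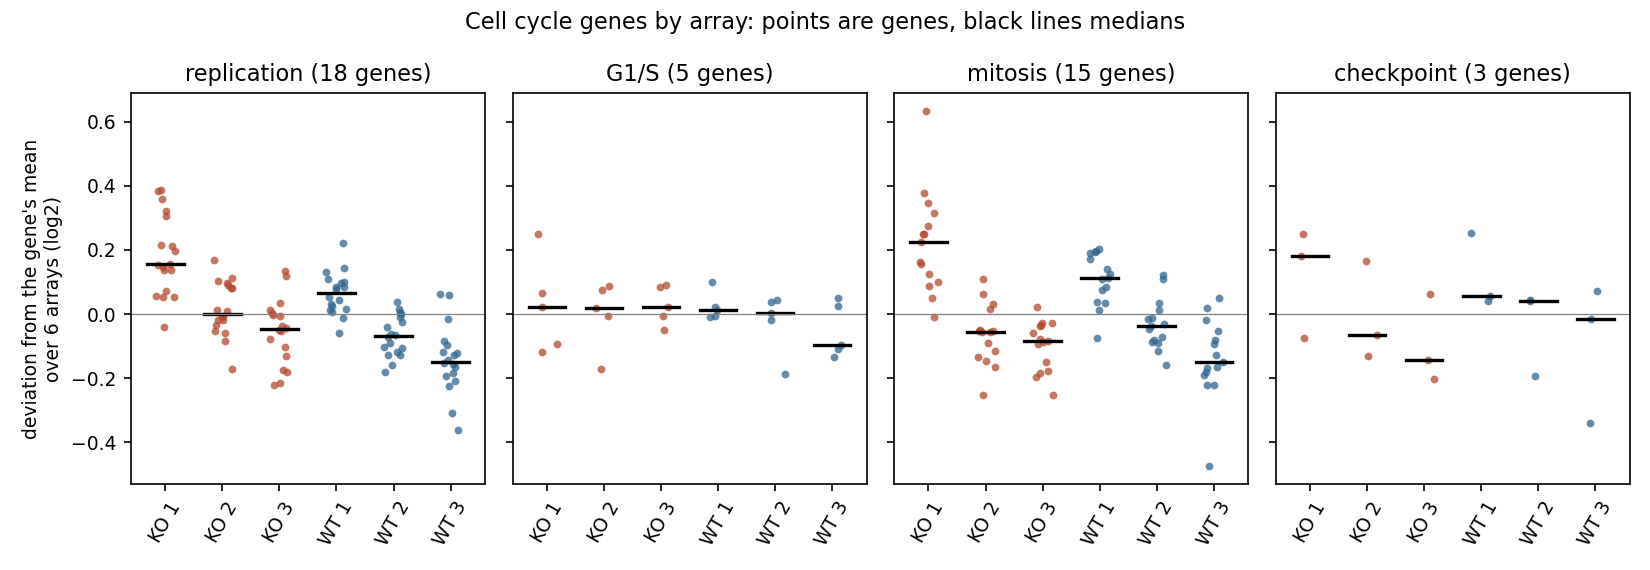
Each point is 1 gene on 1 array, plotted as its deviation in log2 units from that gene's mean over the 6 arrays, in panels for replication, G1/S, mitosis and checkpoint genes; KO is knockout, WT is wild type, and black lines are medians. Replication and mitosis genes lie highest in KO 1 (medians 0.15 and 0.22) and WT 1 (0.065 and 0.11) and lowest in WT 3 (-0.15 and -0.15). The median of the G1/S genes lies near 0 in every array but WT 3, though single genes lie further away, with a range of 0.42 for Cdk4.

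The pattern showed in mitosis and replication genes, was mixed among the 3 checkpoint genes and was small in G1/S genes. Of the 15 mitosis genes, 14 lay above their own mean in knockout 1 and 14 in wild type 1, against 1 in knockout 3 and 2 in wild type 3. Of the 18 replication genes, 17 lay above it in knockout 1 and 16 in wild type 1, against 5 in knockout 3 and 2 in wild type 3. The 5 G1/S genes had 3 above their mean in every array except wild type 3, where 2 were. The 3 checkpoint genes had medians of 0.18 in knockout 1 and 0.058 in wild type 1, and a median range over the arrays of 0.39 beside 0.35 for replication. Among them only Mad2l1 was highest in replicate 1 of both genotypes. Chek1 read 7.83 in knockout 1 and 7.84 in knockout 2, and Bub1 read 7.09 in wild type 1 and 7.12 in wild type 3. Of all genes, 45.0% lay above their own mean in knockout 1 and 59.7% in wild type 1, against 39.8% in knockout 3 and 53.2% in wild type 3. The median SD within a genotype was 0.18 for mitosis, 0.14 for checkpoint, 0.12 for replication and 0.073 for G1/S genes, beside 0.085 for all genes. The range over the 6 arrays was widest for Hmgb2 (1.11), Rfc4 (0.72) and Rrm2 (0.69), and narrowest for Plk1 (0.17), Cdk2 (0.17) and Tk1 (0.18). The range of at least 1 genotype was larger than the difference between genotypes for 40 of 41 members, the exception being Fen1, beside 95.4% of all genes.

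Other measurements of the same arrays moved alongside. Of the oligodendrocyte markers Mbp, Mag, Mobp and Mog, which encode proteins of myelin, knockout 1 had a median deviation of -0.38 and wild type 1 of -0.13, with the other arrays between -0.0031 and 0.20. Mobp read 11.02 in knockout 1 and 11.51 in wild type 1, against 11.75 to 12.07 in the other 4 arrays. Gabra6, a GABA-A receptor subunit of mature granule neurons, read 11.80 in knockout 1 and 11.90 in wild type 1, against 12.11 to 12.69 elsewhere. Grin2c, an NMDA receptor subunit, was also lowest in these arrays, at 10.43 and 10.50 against 10.53 to 10.71. The other granule neuron markers did not share this order, Pax6 being highest in knockout 1 (10.98) and Neurod1 lowest in knockout 2 (12.15). The median deviation of the 4 was -0.039 in knockout 1, -0.089 in knockout 2 and -0.11 in wild type 1. Atoh1, the defining transcription factor of granule progenitors, did not follow the members and read 8.65, 8.66 and 8.58 in the knockouts and 8.79, 8.73 and 8.78 in wild type. Mycn, a hedgehog-induced driver of their division, was highest in knockout 1, next in wild type 1 (9.69), and between 9.23 and 9.61 elsewhere. The part of maturation, RNA quality or dissection in the cell cycle values was not tested.

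**Figure D2:**
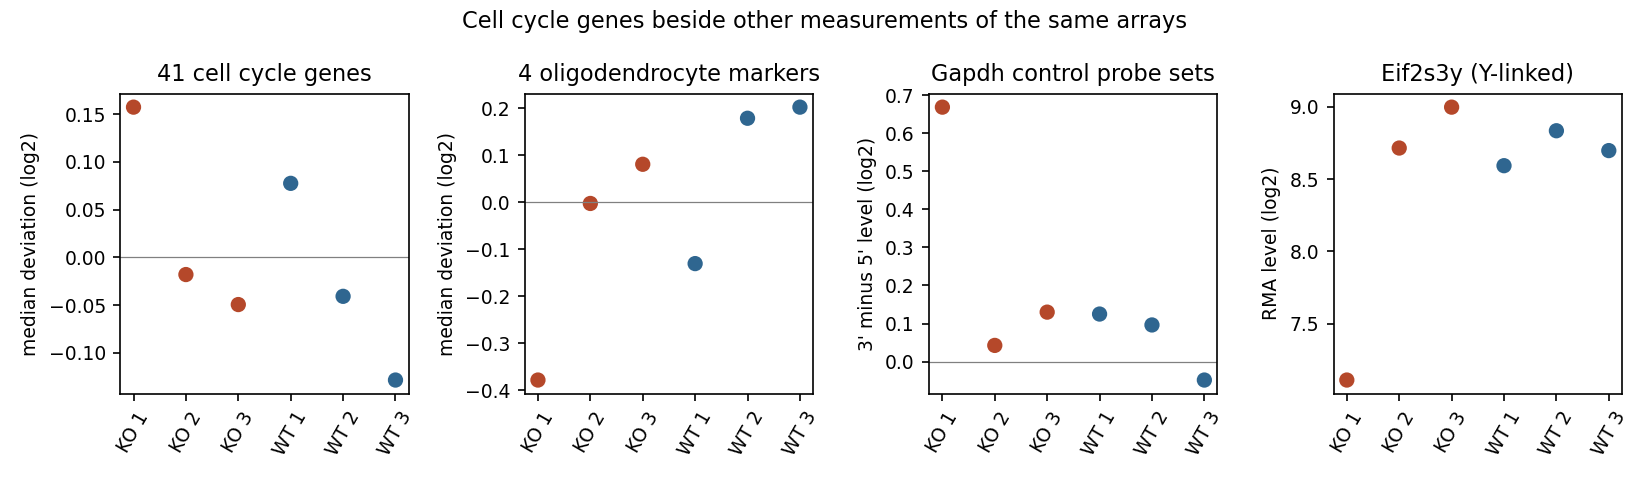
Each point is 1 array, knockouts (KO) on the left of each panel and wild types (WT) on the right, showing the median deviation of the 41 members and of 4 oligodendrocyte markers in log2 units, the 3' minus 5' difference of the Gapdh control probe sets, and the level of Eif2s3y. KO 1 has the highest cell cycle median (0.16), the lowest oligodendrocyte median (-0.38), the widest Gapdh gap (0.67) and the lowest Eif2s3y (7.11); WT 1 shares the first pair of features in weaker form (0.078 and -0.13) and not the other pair.

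Because members moved together, the sequences before their start sites were examined for 3 elements known from cell cycle promoters. These are the CCAAT box bound by NF-Y, the cell cycle genes homology region (CHR) through which the DREAM and MuvB complexes act on mitotic genes, and the E2F site of G1/S and replication genes. The CCAAT box was searched as CCAAT, the CHR as TTTGAA, and the E2F site as TTTGGCGC, TTTCGCGC, TTTCCCGC, TTTGCCGC or GGCGGGAA, all on both strands. RefSeq windows (GRCm38.p6) from 250 bases before to 50 after the start were found for 35 of 41 members, and a gene with several starts counted as holding an element if any window did. The others were Ccna2, Aurkb, Mcm4, Ccne2, Stmn1 and Kif20a.

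The mitosis and replication genes differed in which elements these windows held. Of 11 mitosis genes, 10 held both a CCAAT box and a CHR, or 90.9%, beside 8.97% of the 27025 genes with a window. The exception was Birc5, the survivin of the chromosomal passenger complex, which held none of the 3 elements. Of 17 replication genes, 10 held an E2F site, or 58.8%, beside 4.46% of all genes, while 4 held a CHR (23.5% beside 20.2%). A CCAAT box was found for 12 of the 17 (70.6% beside 41.1%). Only 1 of the 11 mitosis genes, Cdk1, held an E2F site by these letters. These counts are matches of letters, not measured binding.

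The windows of 7 members are shown as examples from the mitosis, replication and checkpoint genes, with every match in capitals and overlapping matches joined. Top2a (chr11:99024140-99024439, minus strand), Cdk1 (chr10:69352863-69353162, minus strand) and Hmgb2 (chr8:57511593-57511892, plus strand) are mitosis genes with CCAAT boxes and CHRs. Mcm3 (chr1:20820263-20820562, minus strand) is a replication gene with CCAAT boxes and E2F sites, and Chek1 (chr9:36726609-36726908, minus strand) holds an E2F site alone. Fen1 (chr19:10204344-10204643, minus strand, the first of 2 listed starts) and Mad2l1 (chr6:66534971-66535270, plus strand) differed most between genotypes in their groups. In Fen1 only a CHR matched, and in Mad2l1 no element did. All read 5′ to 3′ on the gene's own strand.
Top2a: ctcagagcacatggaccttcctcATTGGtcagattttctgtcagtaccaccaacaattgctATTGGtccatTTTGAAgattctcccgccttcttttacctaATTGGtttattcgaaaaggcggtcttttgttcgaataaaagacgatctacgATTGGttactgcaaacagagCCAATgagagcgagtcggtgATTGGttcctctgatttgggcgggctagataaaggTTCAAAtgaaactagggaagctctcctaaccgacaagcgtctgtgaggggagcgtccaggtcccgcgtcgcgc
Cdk1: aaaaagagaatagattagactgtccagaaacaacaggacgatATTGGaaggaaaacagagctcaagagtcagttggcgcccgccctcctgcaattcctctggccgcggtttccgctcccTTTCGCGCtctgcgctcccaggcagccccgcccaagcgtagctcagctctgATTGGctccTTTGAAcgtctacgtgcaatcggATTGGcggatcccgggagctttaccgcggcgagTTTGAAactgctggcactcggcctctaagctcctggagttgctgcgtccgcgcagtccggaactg
Hmgb2: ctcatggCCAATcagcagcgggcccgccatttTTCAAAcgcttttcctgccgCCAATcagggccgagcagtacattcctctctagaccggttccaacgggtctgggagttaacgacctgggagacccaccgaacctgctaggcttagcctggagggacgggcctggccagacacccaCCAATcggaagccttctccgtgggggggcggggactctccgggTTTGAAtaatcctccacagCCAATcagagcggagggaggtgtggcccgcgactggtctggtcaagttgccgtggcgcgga
Mcm3: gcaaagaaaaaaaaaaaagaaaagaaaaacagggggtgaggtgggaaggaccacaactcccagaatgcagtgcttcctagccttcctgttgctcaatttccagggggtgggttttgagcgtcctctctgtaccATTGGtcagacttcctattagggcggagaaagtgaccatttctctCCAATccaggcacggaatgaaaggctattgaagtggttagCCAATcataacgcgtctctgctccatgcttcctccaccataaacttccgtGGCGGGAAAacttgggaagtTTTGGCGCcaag
Chek1: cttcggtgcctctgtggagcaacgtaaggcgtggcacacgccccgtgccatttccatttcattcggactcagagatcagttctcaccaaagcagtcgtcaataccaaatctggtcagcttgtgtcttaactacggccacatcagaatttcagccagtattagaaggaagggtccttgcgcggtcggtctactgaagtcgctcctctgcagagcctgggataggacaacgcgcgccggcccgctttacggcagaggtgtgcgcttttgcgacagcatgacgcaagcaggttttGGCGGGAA
Fen1: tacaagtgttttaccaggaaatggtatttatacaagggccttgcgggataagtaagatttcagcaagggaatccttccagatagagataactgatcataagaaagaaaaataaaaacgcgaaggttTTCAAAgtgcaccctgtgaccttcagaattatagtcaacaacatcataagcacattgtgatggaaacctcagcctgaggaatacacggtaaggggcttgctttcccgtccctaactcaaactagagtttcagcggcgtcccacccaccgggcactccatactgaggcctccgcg
Mad2l1: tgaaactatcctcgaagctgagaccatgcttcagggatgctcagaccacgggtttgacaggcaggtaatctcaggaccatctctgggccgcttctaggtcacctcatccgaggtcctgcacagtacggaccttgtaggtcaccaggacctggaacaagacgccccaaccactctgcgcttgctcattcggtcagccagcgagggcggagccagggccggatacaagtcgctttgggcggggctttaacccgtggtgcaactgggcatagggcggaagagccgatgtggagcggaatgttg
Top2a held 6 CCAAT boxes and 2 CHRs, Cdk1 held 3 and 2, and Hmgb2 held 4 and 2. Among the 14 members with a CHR, 10 of them mitosis genes, the median deviation in knockout 1 was 0.21, and among the 21 without it was 0.16. For the CCAAT box it was 0.20 among the 24 with and 0.14 among the 11 without. For the E2F site it was 0.15 among the 13 with and 0.21 among the 22 without. A part of these elements in the array pattern was not tested.

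Between genotypes, no member passed an adjusted p of 0.05 in limma. The smallest adjusted p among them was 0.841, for Fen1, and 0% of the 8251 genes passed. At an unadjusted p under 0.05 there were 4 of 41 members, beside 5.22% of all genes: Fen1, Mad2l1 and Hmgb2 were higher in the knockouts (2.69% of all genes) and Chek1 was lower (2.53%). The same 4 were those whose groups did not overlap, beside 10.7% of all genes. The count of 4 was 9 without wild type 1, 7 without knockout 2, 6 without knockout 1 and 3 without wild type 3. The 5.22% belongs to the fit on all arrays. The share of all genes in each of these other fits is not given here, so their counts are not compared with other genes. The knockout mean was higher for 26 of 41 members, or 63.4%, beside 38.3% of all genes, and the median difference was 0.051 beside -0.022 over all genes. After median centring these shares were 75.6% and 55.8%. Without knockout 1 the median over the members was 0.00072, with 21 of 41 higher (51.2%), beside -0.022 and 39.3% of all genes. Without wild type 3 it was 0.010, also with 21 higher, beside -0.022 and 38.6% of all genes. No member differed by 1.5-fold, beside 1 of the 8251 genes. Of the 41 members, 24 differed by less than 0.1, beside 6396 of the 8251 genes, so small differences were less common among members.

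**Figure D3:**
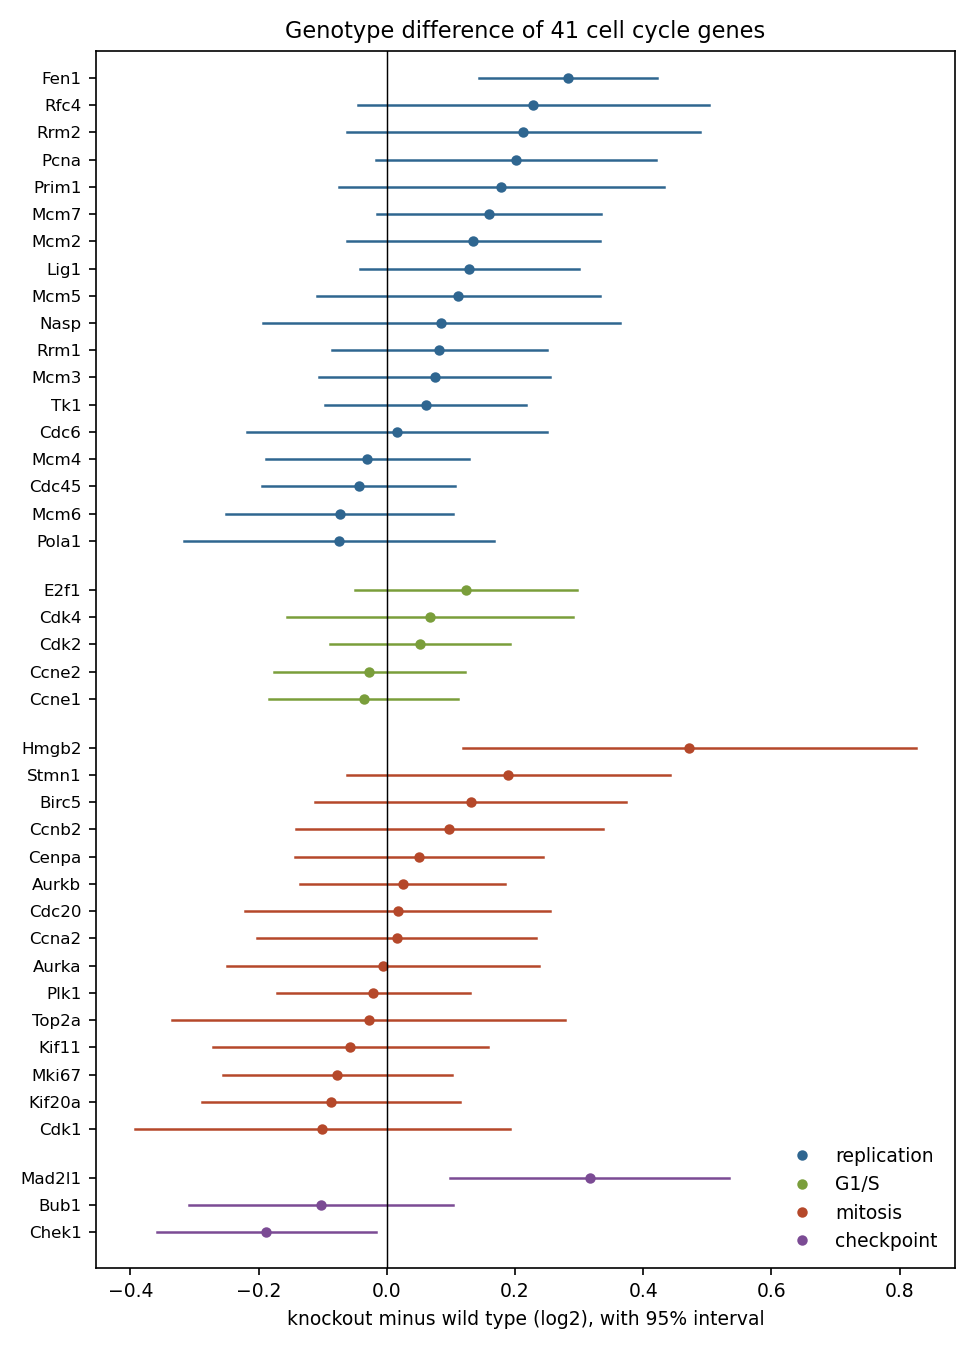
Points are the knockout minus wild type difference of each of the 41 members in log2 units, from 3 arrays per genotype, and lines are limma's 95% intervals, grouped by role. The intervals of Fen1, Hmgb2 and Mad2l1 lie above 0 and that of Chek1 below it (-0.36 to -0.017); the others include 0.

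Among replication genes, 14 of 18 had a higher knockout mean, with a median difference of 0.098. Fen1, the flap endonuclease that trims Okazaki fragments, read 8.57, 8.60 and 8.55 in knockouts 1, 2 and 3 and 8.37, 8.25 and 8.24 in the wild types. The knockouts were tightly grouped and all above every wild type array. Their mean was 8.57 ± 0.03 (SD, n = 3) against 8.29 ± 0.07 (SD, n = 3), a difference of 0.28 (SE 0.06, 95% interval 0.14 to 0.42) or 1.22-fold, with a limma adjusted p of 0.841. Without knockout 1 it was also 0.28, so this difference did not rest on that array. Pcna, the sliding clamp that holds polymerases on DNA, read 11.73, 11.38 and 11.42 in the knockouts and 11.42, 11.30 and 11.20 in wild type. Only knockout 1 stood clear of wild type. The difference was 0.20 (95% interval -0.02 to 0.42, adjusted p = 0.922 in limma), and 0.09 without knockout 1.

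The 6 subunits of the MCM helicase, which unwinds DNA at the fork, did not all lie on the same side. Mcm7 read 10.50, 10.37 and 10.24 in the knockouts and 10.30, 10.16 and 10.17 in wild type, so the groups overlapped by 1 array of each. Its difference was 0.16 (95% interval -0.02 to 0.33, adjusted p = 0.922 in limma), and 0.093 without knockout 1. Mcm5 read 11.16, 10.94 and 10.91 in the knockouts and 11.09, 10.83 and 10.75 in wild type, a difference of 0.11 (95% interval -0.11 to 0.33, adjusted p = 0.932 in limma). In both genotypes replicate 1 was the highest array. Mcm2 differed by 0.14 and Mcm3 by 0.075, while Mcm4 and Mcm6 differed by -0.030 and -0.074. The median of the 6 was 0.093. Without knockout 1, Mcm2 differed by 0.071, Mcm5 by 0.033, Mcm3 by 0.017 and Mcm4 by -0.064. Mcm2, Mcm3, Mcm5 and Mcm7 were each highest in knockout 1, Mcm4 in wild type 1 and Mcm6 in knockout 2. The Mcm6 probe set lay near the dim end, at percentile 14.2 of mean level over all probe sets, where a change is harder to see.

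Rfc4, a subunit of the clamp loader, had the widest range of the replication genes. It read 7.89, 7.51 and 7.53 in the knockouts and 7.56, 7.52 and 7.17 in wild type. The highest and lowest values came from knockout 1 and wild type 3, with the other 4 arrays close together. The difference was 0.23 (95% interval -0.05 to 0.50, adjusted p = 0.922 in limma), and 0.11 without knockout 1. The other replication genes ranged from 0.21 for Rrm2, the small subunit of ribonucleotide reductase, to -0.074 for Pola1, the catalytic subunit of polymerase alpha. Between these lay the primase Prim1 at 0.18, the DNA ligase Lig1 at 0.13, the histone chaperone Nasp at 0.085 and Rrm1, the large reductase subunit, at 0.082. The thymidine kinase Tk1 differed by 0.061, the origin licensing factor Cdc6 by 0.016 and the helicase cofactor Cdc45 by -0.044. Without knockout 1 Rrm2 differed by 0.075, Prim1 by 0.071, Rrm1 by 0.034, Nasp by -0.087, Cdc6 by -0.053, Cdc45 by -0.090 and Pola1 by -0.17. The replication median stayed above 0 with each array left out, from 0.042 without knockout 1 to 0.17 without wild type 1, as did the smaller G1/S median (0.010 to 0.067).

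**Figure D4:**
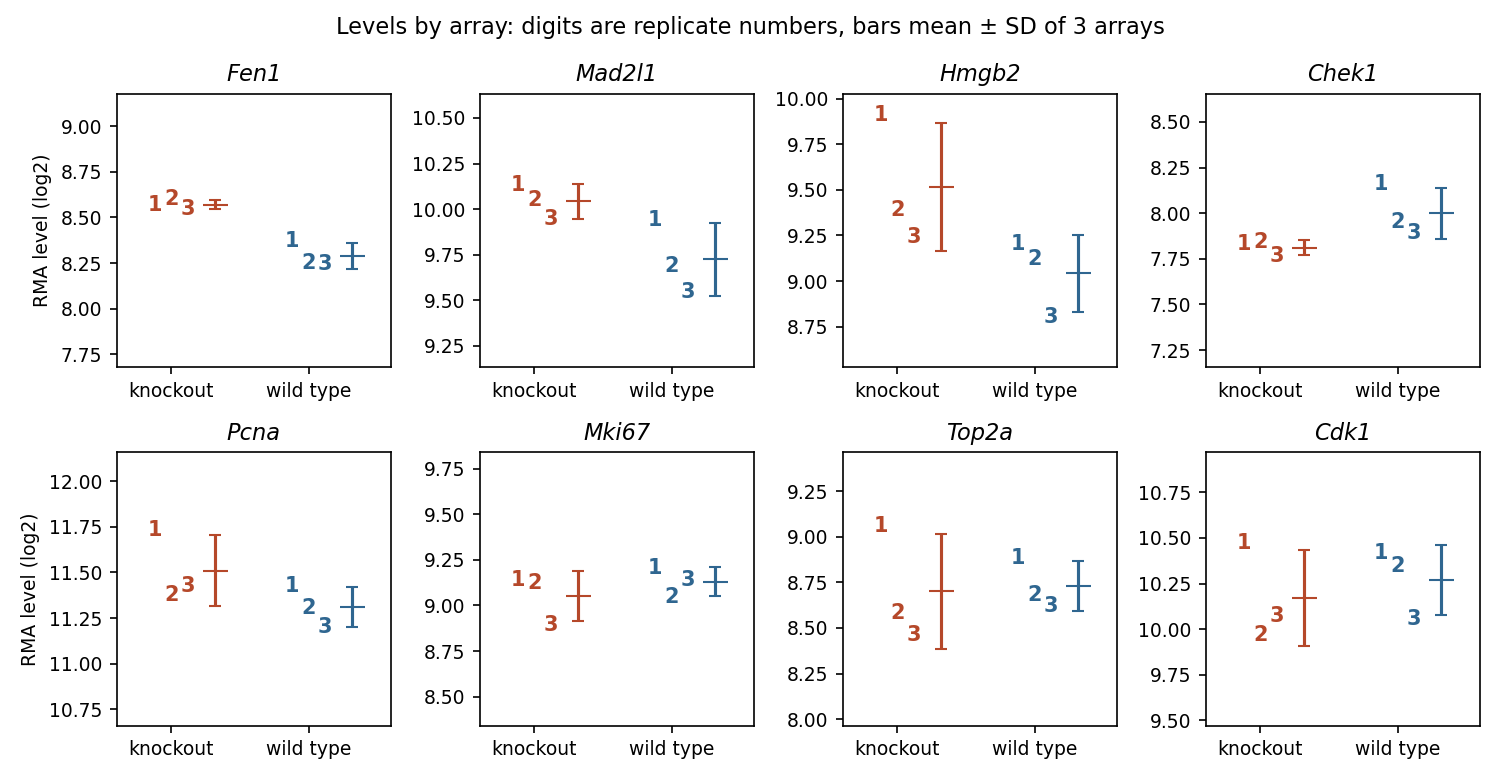
RMA levels in log2 units of 8 members, with digits for the replicate number of each array and bars for the mean ± SD of 3 arrays; every panel spans the same number of log2 units. The genotypes separate for Fen1, Mad2l1, Hmgb2 and Chek1 and overlap for Pcna, Mki67, Top2a and Cdk1, where replicate 1 of the knockouts reads 11.73, 9.14, 9.06 and 10.47.

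The 5 genes of the G1/S step differed little. E2f1, the transcription factor that activates replication genes, read 9.13, 9.18 and 9.20 in the knockouts and 9.21, 8.92 and 9.01 in wild type. Wild type 1 was the highest of all, so the groups overlapped, and the difference was 0.12 (95% interval -0.05 to 0.30, adjusted p = 0.927 in limma). Its other probe set differed by 0.13. Cdk2, the partner of cyclin E, read 8.67, 8.62 and 8.60 in the knockouts and 8.60, 8.64 and 8.50 in wild type. The groups overlapped, with a difference of 0.051 (95% interval -0.09 to 0.19, adjusted p = 0.939 in limma) and 0.057 at a second, dimmer probe set. Cdk4, the kinase of D cyclins, differed by 0.067, Ccne1, cyclin E1, by -0.036 and Ccne2, cyclin E2, by -0.028. Without knockout 1 Cdk2 differed by 0.032, Cdk4 by -0.040, Ccne1 by 0.00072 and Ccne2 by 0.025. The Ccne2 probe set lay at percentile 2.86 of mean level, the only member below the 10th, and could hardly show a difference.

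Mitosis genes had 8 of 15 with a higher knockout mean, 7 lower, and a median difference of 0.015. The most used markers of dividing cells did not separate the genotypes. Mki67, the Ki-67 antigen that coats mitotic chromosomes, read 9.14, 9.12 and 8.89 in the knockouts and 9.20, 9.05 and 9.14 in wild type, a difference of -0.077 (95% interval -0.26 to 0.10, adjusted p = 0.932 in limma). Its other probe set gave -0.076, and the difference was -0.12 without knockout 1. Top2a, the topoisomerase that untangles sister chromatids, read 9.06, 8.58 and 8.46 in the knockouts and 8.89, 8.68 and 8.62 in wild type. The knockouts held both the highest and the lowest values. The difference was -0.029 (95% interval -0.33 to 0.28, adjusted p = 0.982 in limma), with its sign turned after median centring (0.0032) and cyclic loess (0.00043), and it was -0.21 without knockout 1. Cdk1, the kinase that starts mitosis, read 10.47, 9.97 and 10.07 in the knockouts and 10.42, 10.34 and 10.05 in wild type. Its difference was -0.10 (95% interval -0.39 to 0.19, adjusted p = 0.943 in limma), and -0.25 without knockout 1.

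Hmgb2, a chromatin protein abundant in dividing cells, had the largest difference of any member. It read 9.91, 9.39 and 9.24 in the knockouts and 9.20, 9.12 and 8.80 in wild type. All knockouts lay above all wild types, but by only a small step between knockout 3 and wild type 1. The means were 9.51 ± 0.35 (SD, n = 3) and 9.04 ± 0.21 (SD, n = 3), a difference of 0.47 (SE 0.16, 95% interval 0.12 to 0.83) or 1.39-fold, with a limma adjusted p of 0.922. Without knockout 1 it was 0.27. Its single probe set carries the suffix of sets for which the rules of probe selection were relaxed, and signal from related sequences was not tested.

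Stmn1, a protein that destabilises microtubules and is abundant in dividing cells and young neurons, read 14.25, 13.76 and 13.90 in the knockouts and 13.89, 13.76 and 13.69 in wild type. Knockout 1 alone lay well above the rest at this probe set. The difference was 0.19 (95% interval -0.06 to 0.44, adjusted p = 0.927 in limma), or 0.049 without knockout 1. At its other, dimmer probe set the difference was -0.063 and knockout 1 was the lowest array (8.22). Birc5 read 9.02, 8.62 and 8.68 in the knockouts and 8.75, 8.70 and 8.49 in wild type, a difference of 0.13 (95% interval -0.11 to 0.37, adjusted p = 0.932 in limma) that was 0.0062 without knockout 1. Cyclin B2 (Ccnb2) differed by 0.097 and the centromeric histone Cenpa by 0.050. The kinases Aurkb, Aurka and Plk1 differed by 0.025, -0.0065 and -0.021. The anaphase activator Cdc20 differed by 0.017, cyclin A2 (Ccna2) by 0.015 and the spindle motor Kif11 by -0.057. Kif20a, a motor of the central spindle, read 9.60, 9.45 and 9.33 in the knockouts and 9.70, 9.49 and 9.45 in wild type. The groups overlapped, and it differed by -0.087 (95% interval -0.29 to 0.11, adjusted p = 0.932 in limma), and by 0.030 at a dimmer probe set. Without knockout 1 Ccnb2 differed by -0.016, Cenpa by 0.020, Aurkb by -0.032, Aurka by -0.12, Cdc20 by -0.10, Ccna2 by -0.061, Kif11 by -0.15 and Kif20a by -0.16. The mitosis median was -0.061 without knockout 1 and -0.048 without wild type 3, and reached 0.068 without wild type 1.

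**Figure D5:**
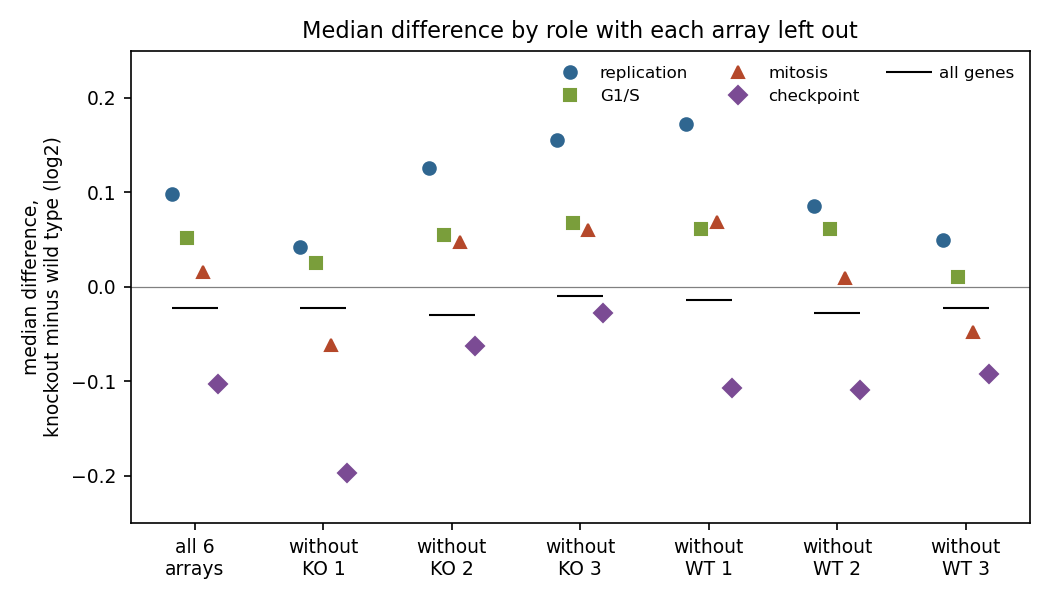
Median knockout minus wild type difference in log2 units of each group of members (coloured symbols) and of all genes (black dashes), with all 6 arrays and with each array left out; KO is knockout and WT wild type. The replication median stays above 0 throughout (0.042 to 0.17), the mitosis median crosses 0 without KO 1 (-0.061) or WT 3 (-0.048), and the checkpoint median of 3 genes stays below 0.

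The 3 checkpoint genes pointed in different directions. Mad2l1, which halts anaphase until chromosomes are attached, read 10.13, 10.05 and 9.95 in the knockouts and 9.94, 9.69 and 9.54 in wild type. Every knockout lay above every wild type, with knockout 3 and wild type 1 next to each other. The means were 10.04 ± 0.09 (SD, n = 3) and 9.73 ± 0.20 (SD, n = 3), a difference of 0.32 (SE 0.10, 95% interval 0.10 to 0.53) or 1.25-fold, with a limma adjusted p of 0.897. Without knockout 1 the difference was 0.27. Chek1, the kinase that responds to stalled replication, read 7.83, 7.84 and 7.76 in the knockouts and 8.16, 7.95 and 7.89 in wild type. At the probe sets used for counts it was the only member with all knockouts below all wild types. The dimmer probe set of Lig1 also had this order. The difference was -0.19 (SE 0.08, 95% interval -0.36 to -0.017, adjusted p = 0.922 in limma). It was -0.20 without knockout 1 and -0.11 without wild type 1. Bub1, a kinetochore kinase of the spindle checkpoint, differed by -0.10, and by -0.14 and -0.016 at 2 dimmer probe sets, and by -0.22 without knockout 1.

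Several genes could be read from more than 1 probe set. Of 13 such members, 7 had differences of the same sign at all their probe sets and 6 did not. The 6 were Lig1 (0.13 and -0.14), Stmn1, Mcm5 (0.11 and -0.054), Tk1 (0.061 and -0.097), Kif20a and Rrm1 (0.082 and -0.0042). For 5 of them, the positive difference came from the brighter probe set, Kif20a being the exception. Lig1 read 9.64, 9.69 and 9.62 in the knockouts and 9.68, 9.46 and 9.42 in wild type at the brighter set. Wild type 1 thus lay among the knockouts (95% interval of the difference -0.04 to 0.30, adjusted p = 0.927 in limma). At the dimmer set all knockouts (8.42, 8.42 and 8.29) lay below all wild types (8.52, 8.45 and 8.58). Tk1 read 11.30, 11.33 and 11.20 in the knockouts and 11.33, 11.15 and 11.16 in wild type at its brighter set, again with wild type 1 among the knockouts (95% interval -0.10 to 0.22, adjusted p = 0.934). Rrm1 read 9.93, 9.89 and 9.69 in the knockouts and 9.81, 9.76 and 9.70 in wild type, where knockout 3 was the lowest of all arrays (95% interval -0.085 to 0.25, adjusted p = 0.932). Over all 56 probe sets, 31 had a higher knockout mean and 25 a lower one, with a median of 0.021.

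Other genes of the cell cycle were taken from a wider list of 115 symbols, of which 95 were on the array. None passed in limma, and 8 (8.42%) were at an unadjusted p under 0.05, beside 5.22% of all genes. The median difference was -0.0032, with 47 (49.5%) higher, beside 38.3% of all genes, and 48 lower. The 3 with the smallest p among those higher in the knockouts were H2az1, the replacement histone H2A.Z, at 0.29, Gmnn, which blocks origin relicensing, at 0.26 and Racgap1, a regulator of cytokinesis, at 0.23. The 3 among those lower were Cdc7, the kinase that fires origins, at -0.19, Ccnc, the cyclin of the Mediator kinase, at -0.25 and Top1, topoisomerase I, at -0.20. Of the 95, 67 (70.5%) lay above their own mean in knockout 1, beside 45.0% of all genes, and 71 (74.7%) in wild type 1, beside 59.7% of all genes. In the other arrays 35 to 39 did.

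Markers of the cell types in the tissue were measured beside the members. Blood was the list whose summed level, the log2 of the sum of its unlogged values, did not overlap, at 14.70 to 14.85 in the knockouts and 14.46 to 14.60 in wild type, with 3 of 3 genes higher. Granule progenitor markers had 2 of 7 higher, with a summed level of 14.25 to 14.37 in the knockouts and 14.29 to 14.35 in wild type. Most of that sum was Zic1, so it says little about the other markers. Mycn differed by 0.23 and Zic1 by 0.018. Ptch1 differed by -0.28 and Atoh1 by -0.13, each with a limma adjusted p of 0.922, and the groups did not overlap for Atoh1. Gli2 differed by -0.048, Ccnd2 by -0.046 and Gli1 by -0.039. Granule neuron markers had 1 of 4 higher (13.58 to 13.83 against 13.54 to 13.90) and oligodendrocyte markers 0 of 4 (14.09 to 14.43 against 14.28 to 14.58). Purkinje markers had 1 of 4 higher, oligodendrocyte precursors 1 of 2, astrocytes 2 of 4, microglia 2 of 5, endothelium 2 of 5 and meninges 4 of 5, all with overlapping summed levels. Choroid plexus markers had 1 of 3 higher, and Ttr, the choroid plexus transthyretin, read 10.20 in knockout 3 and 9.71 in wild type 1 against at least 12.13 elsewhere. Of these arrays, wild type 1 was high in cell cycle genes and knockout 3 low. The part of these cell types in the genotype differences was not tested.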

How the data were processed

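Total RNA of the cerebellum was measured on 6 arrays, each taken as 1 animal because the design text counts 3 per genotype. Nothing says that litters or preparations were separate, so p-values measure the spread between these samples. Per the submitters' processing notes the authors used RMA, of no named version, to make the deposited log2 values. RMA brings arrays to a common distribution, so a change in total RNA cannot be seen.

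Of 12488 probe sets, 66 controls were left out and 12422 tested with limma 3.58.1 in R 4.3.3 (lmFit, eBayes, genotype as the term, 2-sided, Benjamini-Hochberg over all of them, threshold 0.05). Symbols came from the array's annotation table, where 10833 probe sets had 1 symbol, 396 several and 1193 none. Arrays have no read depth. For a member, the 95% interval extended a median of 0.21 on each side of its difference. On simulated data for 12422 probe sets in this design, limma called 95 of 100 changed 1.5-fold and 100 of 100 changed 2-fold, with 9 false calls. The simulation drew independent noise at the spread fitted over all probe sets. The members varied together, with a median SD within a genotype of 0.14 beside 0.085 for all genes. In the real data L1cam differed 1.52-fold with a limma adjusted p of 0.841. The simulation therefore cannot tell whether a 1.5-fold change in a member would be called.

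The members, lists and tests were chosen with earlier results of these data known. Values on every array were given for 4 proliferation markers, for the members with the smallest unadjusted p in each role, for members whose probe sets disagreed in sign, and for L1cam. The promoters shown, and the motifs, were chosen after values were seen. Replicate numbers were not treated as pairs in the main fit, since over all probe sets tested the deviations of same-numbered arrays correlated at 0.16, -0.32 and 0.17. The members did share an order by replicate number, with 27 of 41 highest in replicate 1 of both genotypes. The labels do not say whether same-numbered arrays shared a litter or preparation, and a shared factor was not tested as the cause of that order. Alternatives were other normalizations, leaving out probe sets below the 40th percentile of mean level, other variance models, array weights, a replicate block, a Gapdh covariate, other probe set rules and each array left out.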

Additional observations from a re-analysis of the deposited data

How the results depend on the processing

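No member passed in limma under any of the 16 alternatives, where the smallest adjusted p of a named member was 0.339, and no gene of the wider list passed. The count of members at an unadjusted p under 0.05 was 4, and it was 2 with the filter on dim probe sets, which left 29 members, 7 with the Gapdh covariate and 10 with array weights. With the replicate block it was 8, and none passed; the block changed no call. Leaving out 1 array gave 3 to 9. The share of all genes at that p is not given for these settings, so the counts are not compared with other genes. The number of members with a higher knockout mean ran from 21 to 33 over the single omissions (51.2% to 80.5%), beside 38.5% to 44.4% of all genes. Over the same omissions the median difference of the members ran from 0.00072 to 0.091. With the Gapdh covariate, which mainly marks knockout 1, the median was -0.017 and 18 of 41 were higher (43.9%). Over all genes it was then -0.022, with 39.1% higher. The checkpoint median was 0.32 with the filter, which left Mad2l1 as its only gene. Of 315 recomputed differences of 20 named genes, 302 kept their sign and 13 did not. The signs that turned were those of Top2a (0.084 with array weights, 0.0032 after median centring, 0.00043 after cyclic loess, and 0.032, 0.091 and 0.050 without knockout 2, knockout 3 and wild type 1), Cdk1 (0.032 with array weights, 0.00043 without knockout 2), Mki67 (0.0021 without knockout 3), Birc5 (-0.026 with the Gapdh covariate), Kif20a (0.030 without cross-hybridizing probe sets), and Lig1 and Tk1 (-0.0051 and -0.018 with probe sets averaged per gene). Over the single omissions these 3 mitosis genes reached down to -0.21 (Top2a), -0.25 (Cdk1) and -0.12 (Mki67), in each case without knockout 1. The cause was not tested.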
